A study of Phaseolus vulgaris with 21 samples.

Results

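The end of floral nectar secretion in common bean (Phaseolus vulgaris) was examined by setting post-secretory floral nectaries (post) against secretory ones (sec). The libraries were taken by their stage labels, 3 a side, so that 6 of the 21 libraries of the series entered the comparison, and all 6359 rows of the deposited table were compared. All groups used here are untreated plants of 1 cultivar, Blue Lake 274, grown at 23 °C with 16 h of light a day, and no transgene or mutant allele is named in the labels. Post nectaries were collected 12 h after the secretory stage. Sec nectaries were collected from fully open flowers 3 h after dawn. The younger stages pre2 (12 h before anthesis) and pre1 (24 h before anthesis), with 3 libraries each, are given beside them for context. The labels give an hour of day for sec alone. If anthesis is taken to be the time of sec, these intervals would put post 15 h after dawn, at the hour of pre2 on the day before, and pre1 at the hour of sec, but no label states those hours. In post against sec, the end of secretion and the 12 h of the day that passed cannot be told apart. The labels do not say whether the libraries of a stage came from separate plants, so that the spread behind the p-values may be technical. For p-values and standard errors, that spread is pooled within 7 groups over all 21 libraries, leaf and extrafloral nectaries included. It is not that of post and sec alone.

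A floral nectary draws sugar from the phloem, stores part of it, in many species as starch, and around anthesis exports it as nectar. In Arabidopsis, sucrose leaves nectary cells through the carrier SWEET9 and is cleaved outside them by the cell wall invertase CWINV4, while CRABS CLAW is needed for the nectary to form and MYB21 and MYB24, which act downstream of jasmonate, for secretion. Once a flower has been visited or has aged, nectaries of different species may take nectar sugar back up, change their walls or senesce. The comparison asks which transcripts of this machinery, and which others, differed once secretion was over.

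Values are the authors' normalized read counts on soybean transcripts, and each name below is that of the soybean transcript the bean reads were assigned to. "Match" below means the Arabidopsis gene with which the table pairs that transcript. Close copies may share reads and the library kit does not mark strand, so members of a family, and overlapping genes, are uncertain as single genes. Differences are on the log2(value + 1) scale of post minus sec, followed by their standard error (SE), and a transcript was called where limma's Benjamini-Hochberg adjusted p over all 6359 rows was under 0.05. Values given as 3 numbers are those of libraries 1, 2 and 3, in that order. Sums over the table were 3559737 to 3873218 in post and 3581284 to 3769965 in sec. Tissue was pooled into bulk RNA, so that fewer cells of a type and less RNA per cell cannot be told apart.

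Post library 1 stood between sec and the other post libraries. Across rows, a description in which genes are not independent, its log2 values correlated at r = 0.976 and 0.960 with post libraries 2 and 3 and at 0.967 to 0.969 with the sec libraries. Post libraries 2 and 3 correlated at 0.982 with each other, and sec libraries at 0.983 to 0.986. Among the transcripts called higher in post, post library 1 was the lowest post library for 153 of 167, and among those called lower it was the highest for 129 of 197. Median log2 differences from the sec mean over the called increases were 0.91, 1.58 and 1.97 in post libraries 1, 2 and 3, and over the called decreases -0.98, -1.28 and -1.56. The nectary identity factor CRABS CLAW (match of LOC100500026) was present at similar values on both sides, 518, 489 and 387 in post, against 484, 479 and 528 in sec.

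**Figure D1:**
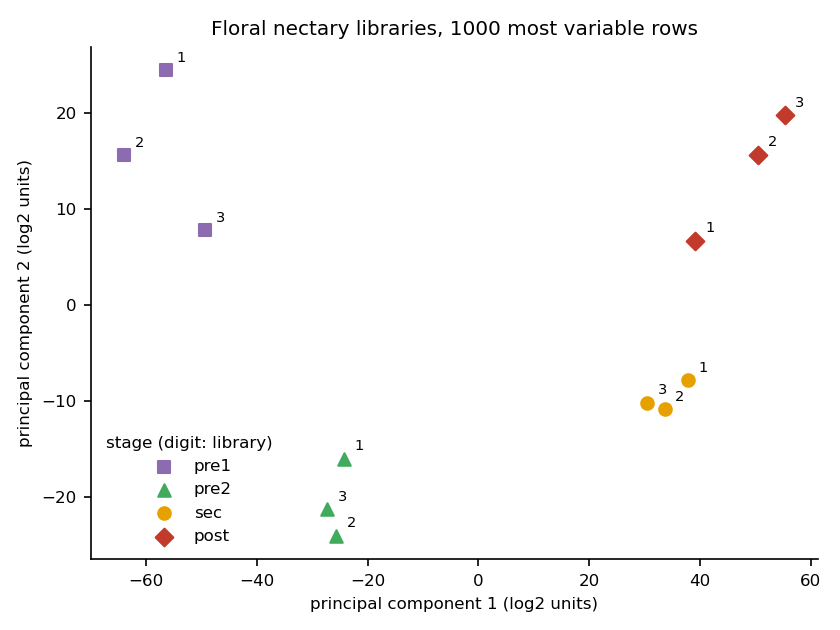
Principal components of log2(value + 1) over the 1000 most variable rows in the 12 floral libraries; digits number the libraries of a stage. Post libraries lie above sec libraries on component 2 (6.74, 15.7 and 19.8 in post libraries 1, 2 and 3, against -7.82, -10.8 and -10.2 in sec libraries 1, 2 and 3), with post library 1 nearest to sec.

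Between the stages 364 transcripts were called, 5.72% of all rows. Of these, 167 (2.63% of rows) were higher in post and 197 (3.1%) were lower. The median log2 difference was 1.50 among the called increases and -1.24 among the called decreases, against -0.06 over all rows. All 3 post libraries lay above all 3 sec libraries for 865 rows (13.6%) and below them for 1016 (16.0%), in all 29.6% of rows, and 163 of the called increases and 194 of the called decreases were among these. Each library left out in turn moved the count by more than 1.5 times: to 605 without post library 1, 173 without post library 2, 137 without post library 3, 206 without sec library 1, 184 without sec library 2 and 189 without sec library 3. The authors' deposited table marks 627 rows (9.86%) as different between post and sec, of which 281 were also called here, 44.8% of theirs and 77.2% of those called here. In post against pre2, which share an hour of day if the intervals above are read so, 2426 rows were called (38.2%), 1147 higher in post (18.0%) and 1279 lower (20.1%); both comparisons use the post libraries.

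**Figure D2:**
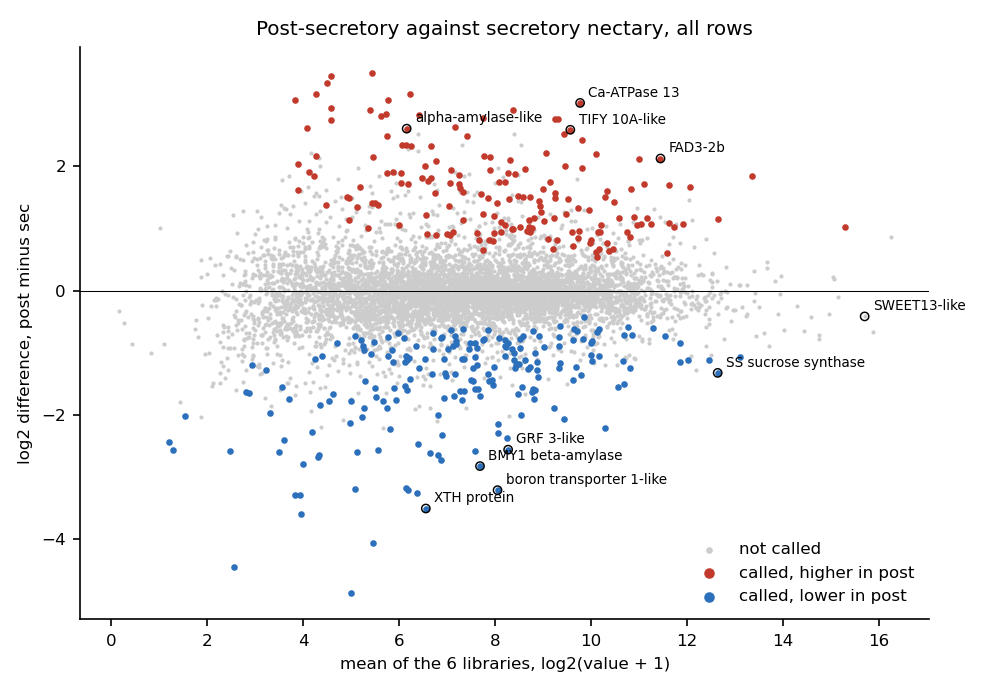
Log2 difference of post minus sec against the mean of the 6 libraries on the log2(value + 1) scale, 1 point per row. Red points (167) were called higher and blue points (197) lower in post; circled transcripts are described in the text.

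Among the abundant transcripts that rose most after secretion were a calcium pump, a cold-responsive C2-domain protein and JAZ repressors. Abundant here means a group mean of at least 493 in post or sec, the 75th percentile of all row means, and the 15 largest called changes of such transcripts without overlap in each direction were considered. The most increased was LOC100793918, a plasma membrane calcium-transporting ATPase, a pump that clears calcium from the cytosol. It had 1544, 2926 and 3407 in post libraries 1, 2 and 3, against 295, 261 and 373 in sec libraries 1, 2 and 3, a log2 difference of 3.02 ± 0.48 SE, adjusted p = 0.000928. Every post library was at least 1544 and no sec library was above 373. LOC100305447, a leucine-rich repeat protein described as related to disease resistance, had 1449, 1497 and 2088 in post, against 311, 241 and 322 in sec (2.51 ± 0.22 SE, adjusted p = 2.86e-06). Its standard error was the smallest of these 15. SRC2, a C2-domain protein known in soybean as cold-responsive, had 1238, 2509 and 4203 in post, against 585, 477 and 481 in sec (2.20 ± 0.36 SE, adjusted p = 0.00118). In all of these the lowest post value exceeded the highest sec value by more than the range within sec. The calls of these transcripts held without each of the 6 libraries in turn.

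Others of the 15 lost their calls when single libraries were left out. LOC100806641, named for YLS9, a gene known from senescing and infected Arabidopsis leaves, had 306, 1349 and 1802 in post, against 135, 82 and 157 in sec (2.90 ± 0.81 SE, adjusted p = 0.0409). Post library 1 was close to the sec values, and the call was lost without post library 2 or 3 or sec library 1, 2 or 3 (adjusted p from 0.0895 to 0.238). LOC100306396 had 167, 652 and 1665 in post, against 124, 51 and 86 in sec (2.78 ± 0.77 SE, adjusted p = 0.0389), and its call was lost without post library 2 or 3 or sec library 1, 2 or 3 (adjusted p from 0.0683 to 0.273). LOC100306686 had 877, 2300 and 1960 in post, against 410, 148 and 205 in sec (2.77 ± 0.61 SE, adjusted p = 0.00968), and its call was lost without post library 2 or 3 or sec library 2 (adjusted p from 0.0612 to 0.0646). For both, post library 1 was again the lowest of the post libraries. LOC100798848, described as myb-like protein X, had 842, 1798 and 2969 in post, against 297, 178 and 273 in sec (2.76 ± 0.49 SE, adjusted p = 0.00242) and kept its call without each library. The uncharacterized LOC100305915 was near 0 before anthesis, with means of 0.667 in pre1 and 0.333 in pre2, and had 304, 650 and 619 in post, against 153, 102 and 89 in sec (2.14 ± 0.58 SE, adjusted p = 0.034). Its call was lost without post library 2 or 3 or sec library 1, 2 or 3 (adjusted p from 0.0561 to 0.176).

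A lipid desaturase, a nucleotide sugar enzyme and a wall protein also rose. FAD3-2b, a microsomal omega-3 desaturase that makes linolenic acid, the fatty acid from which jasmonate is built, had 5028, 6730 and 5851 in post libraries 1, 2 and 3, against 1139, 1168 and 1794 in sec libraries 1, 2 and 3, a log2 difference of 2.12 ± 0.34 SE, adjusted p = 0.000877. Its post values were the highest of the 15. LOC100803483, a UDP-glucose 4-epimerase, which interconverts the UDP forms of glucose and galactose, had 704, 1339 and 1609 in post, against 295, 210 and 245 in sec (2.21 ± 0.24 SE, adjusted p = 2.43e-05). PRP3, a repetitive proline-rich protein of the cell wall, had 2050, 2704 and 1589 in post, against 389, 374 and 397 in sec (2.42 ± 0.53 SE, adjusted p = 0.00868), and its call was lost without post library 2 (adjusted p = 0.0535). PRP3 was already higher in sec than at the younger stages, whose means were 25.7 ± 10.2 in pre1 and 32.7 ± 12.5 in pre2 (SD, n = 3). Among 46 cytosolic ribosomal protein transcripts, whose median difference was -0.02, LOC100779884, 60S ribosomal protein L10, was the single one called, with 3294, 4142 and 5760 in post, against 830, 791 and 1472 in sec (2.11 ± 0.55 SE, adjusted p = 0.0276). That call was lost without post library 2 or 3 or sec library 1 or 2 (adjusted p from 0.0862 to 0.158).

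**Figure D3:**
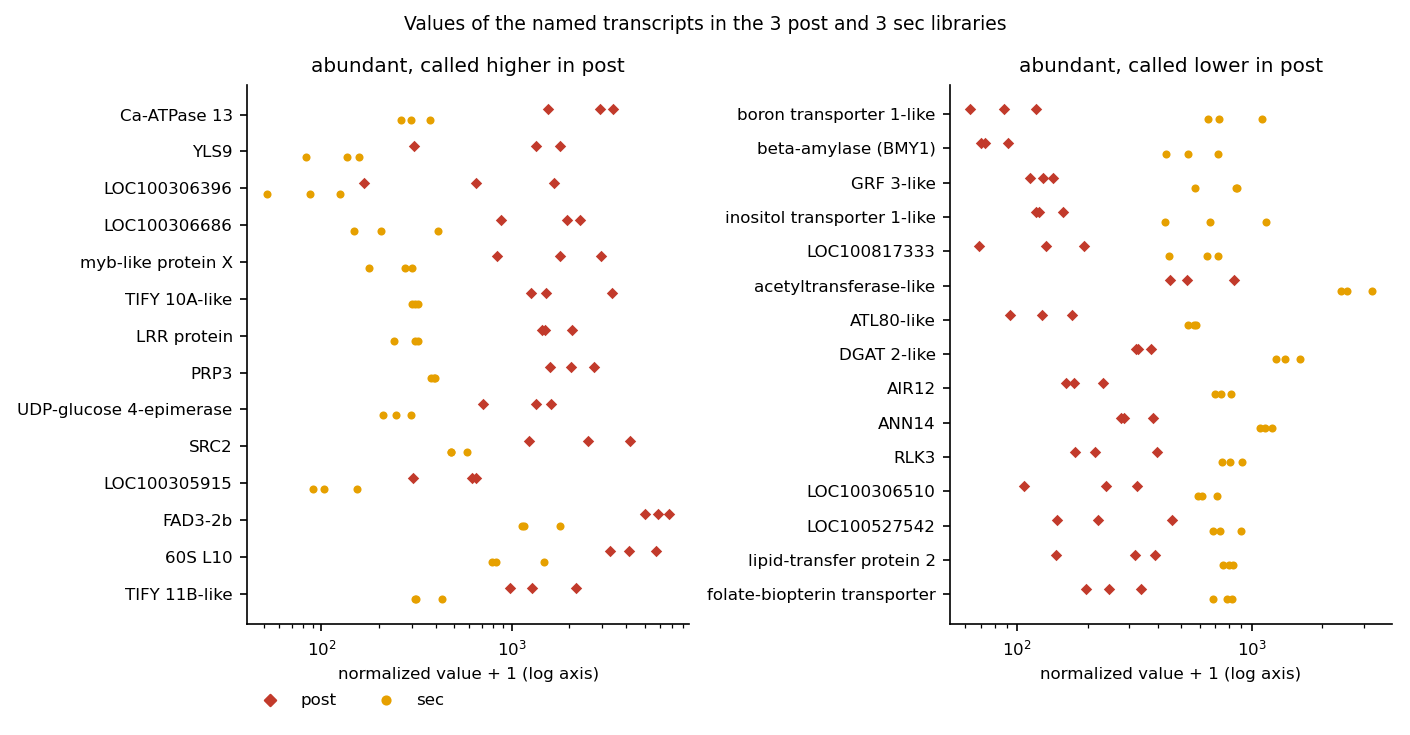
Values (plus 1, log axis) of the abundant called transcripts described, those that rose on the left and those that fell on the right, in the 3 post libraries (diamonds) and 3 sec libraries (circles). Within each transcript the post and sec points do not overlap; for YLS9 and LOC100306396 the lowest post point lies close to the sec points.

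Boron and inositol transporters, a beta-amylase and a growth-regulating factor were among the largest falls of abundant transcripts, those with a group mean of at least 493. LOC100776705, boron transporter 1-like, a borate exporter of the plasma membrane, had 119, 87 and 62 in post libraries 1, 2 and 3, against 651, 727 and 1107 in sec libraries 1, 2 and 3, a log2 difference of -3.21 ± 0.33 SE, adjusted p = 1.06e-05. Its means at the younger stages were 131 ± 46.6 in pre1 and 272 ± 22.5 in pre2 (SD, n = 3), so that post was the lowest and sec the highest of the 4 stages. LOC100815588, inositol transporter 1-like, which moves inositol across a membrane, had 119, 123 and 156 in post, against 666, 1148 and 424 in sec (-2.37 ± 0.33 SE, adjusted p = 0.00028). LOC100814842, growth-regulating factor 3-like, of a family that promotes cell proliferation in growing organs, had 141, 112 and 128 in post, against 854, 864 and 571 in sec (-2.56 ± 0.29 SE, adjusted p = 3.99e-05). For both, no post library reached the lowest sec library. LOC100784657, diacylglycerol O-acyltransferase 2-like, for the last step of storage oil synthesis, had 370, 326 and 321 in post, against 1387, 1608 and 1264 in sec (-2.06 ± 0.23 SE, adjusted p = 2.3e-05). LOC100305350, an AIR12 cytochrome of the plasma membrane, had 173, 160 and 231 in post, against 741, 695 and 818 in sec (-2.01 ± 0.38 SE, adjusted p = 0.00378), below a pre1 mean of 3379 ± 284 and a pre2 mean of 1655 ± 412. AIR12 was thus lower at each later stage. The annexin ANN14, of a family of calcium-dependent membrane-binding proteins, had 380, 283 and 275 in post, against 1086, 1139 and 1224 in sec (-1.89 ± 0.28 SE, adjusted p = 0.000482). All of these calls held without each library in turn.

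Of the other 9 transcripts in that group of 15, 6 kept their calls without each library. BMY1 is described with the starch enzymes. RLK3, a receptor-like kinase, had 392, 214 and 175 in post, against 749, 911 and 805 in sec (-1.74 ± 0.27 SE, adjusted p = 0.000629), and LOC100794614, a RING-H2 protein like ATL80, had 92, 126 and 171 in post, against 565, 536 and 578 in sec (-2.15 ± 0.28 SE, adjusted p = 0.000169). The acetyltransferase-like LOC100792476, with the highest sec values of the 15 decreases, had 837, 448 and 527 in post, against 2401, 2537 and 3255 in sec (-2.21 ± 0.37 SE, adjusted p = 0.00142). The folate-biopterin transporter LOC100802771 and the uncharacterized LOC100817333 had differences of -1.58 (adjusted p = 0.00142) and -2.29 (adjusted p = 0.000482). Lipid-transfer proteins carry lipids to the cuticle and wall. The one named LOC100306479 had 387, 316 and 145 in post, against 751, 801 and 829 in sec (-1.60 ± 0.37 SE, adjusted p = 0.0137), and LOC100306510, whose match is Arabidopsis LTP3, had 322, 237 and 106 in post, against 591, 611 and 711 in sec (-1.66 ± 0.38 SE, adjusted p = 0.0115). Their calls were lost without post library 3 or sec library 2 or 3 (adjusted p from 0.0528 to 0.131) and without post library 3 or sec library 3 (adjusted p from 0.0558 to 0.108). LOC100527542, uncharacterized, had 455, 221 and 147 in post, against 686, 733 and 895 in sec (-1.64, adjusted p = 0.0275), and its call was lost without post library 2 or 3 or sec library 1, 2 or 3 (adjusted p from 0.0689 to 0.205).

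SWEET carriers, which let sugar pass out of the cell, showed no called change between the stages (0 of 5, median -0.37). The most abundant, LOC100810946 (SWEET13-like, matched to Arabidopsis SWEET11 and SWEET9), had 81854, 43437 and 27583 in post libraries 1, 2 and 3, against 61724, 48909 and 76977 in sec libraries 1, 2 and 3, a log2 difference of -0.41 ± 0.46 SE, adjusted p = 0.714. The sides overlapped, because post library 1 was above every sec library and post libraries 2 and 3 were below them all. At pre2 its mean was 130566 ± 7422 (SD, n = 3), and post was lower than pre2 by a log2 difference of -1.50 (adjusted p = 0.0151). LOC100791284, SWEET6b-like, had 10623, 5470 and 3041 in post, against 6767, 6913 and 8196 in sec (-0.37, adjusted p = 0.775), and LOC102669242, matched to SWEET7, had 2050, 1100 and 637 in post, against 1632, 1658 and 2036 in sec (-0.65, adjusted p = 0.512). Both repeated the order of post libraries seen for SWEET13-like. LOC100810962, SWEET14-like, had 473, 688 and 536 in post, against 799, 436 and 411 in sec (0.10, adjusted p = 0.921). LOC100305842, the match of SWEET2, a carrier placed in the vacuole membrane in Arabidopsis, was the single SWEET transcript with all post libraries above sec. It had 1644, 2880 and 2830 in post, against 1569, 1227 and 1074 in sec (0.90 ± 0.29 SE, adjusted p = 0.0805), was called without post library 1 (adjusted p = 0.0213), and was higher in post than in pre2 by 2.52 (adjusted p = 2.45e-06). Of 5 other sugar carriers none was called (median -0.23): the sucrose importer SUT1 had 939, 886 and 764 in post, against 1165, 1004 and 878 in sec (-0.23, adjusted p = 0.472).

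Enzymes that cleave sucrose moved in different directions. CWINV, a beta-fructofuranosidase matched to cell wall and vacuolar invertases, fell to 10016, 5627 and 3952 in post libraries 1, 2 and 3, against 11746, 11440 and 15201 in sec libraries 1, 2 and 3, a log2 difference of -1.07 ± 0.26 SE, adjusted p = 0.0205. The call was lost without post library 2 or 3 or sec library 1 or 3 (adjusted p from 0.0522 to 0.177). A mitochondrial-type neutral invertase, LOC100785091, which cleaves sucrose inside the cell, rose to 2825, 3841 and 4116 in post, against 1603, 1623 and 1827 in sec (1.08 ± 0.27 SE, adjusted p = 0.0238), a call lost without post library 2 or 3 or sec library 1, 2 or 3 (adjusted p from 0.0596 to 0.148). The sides did not overlap for either enzyme. Both CWINV and LOC100777418 are paired with Arabidopsis CWINV4 among others. LOC100777418 had 23447, 10281 and 3955 in post, against 14325, 15406 and 27792 in sec (-0.90, adjusted p = 0.431), with overlapping sides. The 2 neutral invertases LOC100803655 and LOC100794258 had differences of 0.58 (adjusted p = 0.11) and -0.01 (adjusted p = 0.99). The most abundant member of this list was LOC100500640, matched to an invertase inhibitor, which had 75272, 43976 and 33192 in post, against 65027, 70960 and 95097 in sec (-0.67, adjusted p = 0.817). The other inhibitor-matched transcript, LOC100306719, had 4514, 4698 and 3749 in post, against 5756, 4727 and 5309 in sec (-0.29, adjusted p = 0.803). Over the 7 transcripts of the list 1 rose, 1 fell and the median was -0.29. Of all rows, 2.63% were called higher and 3.1% lower.

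Sucrose synthase, which reversibly splits sucrose into fructose and UDP-glucose, was lower in post for 1 of its 2 transcripts. SS had 5297, 4153 and 2979 in post libraries 1, 2 and 3, against 9154, 9981 and 11235 in sec libraries 1, 2 and 3, a log2 difference of -1.32 ± 0.27 SE, adjusted p = 0.00633, and the call was lost without post library 3 (adjusted p = 0.0564). Its mean had been 21143 ± 2291 at pre2 (SD, n = 3), from which post differed by -2.38 (adjusted p = 2.16e-06). LOC100802045, sucrose synthase 2, was more abundant and had 45776, 18575 and 11841 in post, against 30169, 31764 and 46905 in sec (-0.72 ± 0.36 SE, adjusted p = 0.297). Post library 1 was above all but 1 sec library, and without it the difference was called (adjusted p = 0.011). Sucrose-phosphatase, the last step of sucrose synthesis (LOC100796915), had 1023, 555 and 439 in post, against 856, 730 and 877 in sec (-0.38, adjusted p = 0.451) and was likewise called without post library 1 (adjusted p = 0.0338). The UDP-glucose pyrophosphorylase LOC106797982 had 195, 215 and 197 in post, against 195, 217 and 231 in sec (-0.08, adjusted p = 0.887). Of the 4 transcripts none rose, 1 fell, and the median was -0.55. Of all rows, 3.1% were called lower.

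Starch-degrading amylases changed in both directions. BMY1, a beta-amylase matched to Arabidopsis BAM6, which releases maltose from starch, fell to 69, 72 and 90 in post libraries 1, 2 and 3, against 430, 715 and 532 in sec libraries 1, 2 and 3, a log2 difference of -2.82 ± 0.35 SE, adjusted p = 9.05e-05. It had been as low at the younger stages, with means of 57.3 ± 16.9 in pre1 and 47.7 ± 2.08 in pre2 (SD, n = 3), so that it was high at the secretory stage alone of the 4. Its sec level thus exceeded those of pre1, pre2 and post. An alpha-amylase, LOC100815664, matched to AMY2, which cuts starch chains internally, rose to 146, 177 and 208 in post, against 28, 27 and 29 in sec (2.60 ± 0.50 SE, adjusted p = 0.00417). A second alpha-amylase, LOC100813490, had 512, 599 and 756 in post, against 329, 290 and 299 in sec (1.00 ± 0.23 SE, adjusted p = 0.012), a call lost without post library 3 or sec library 2 (adjusted p from 0.056 to 0.0975). Neither alpha-amylase overlapped between the stages. Of 12 starch breakdown transcripts 2 thus rose and 1 fell, against 2.63% of all rows called higher and 3.1% lower. The remaining 9 of 12 starch breakdown transcripts were not called, among them the abundant inactive beta-amylase-like transcript (BAM9 match) and BMY2, with 3913, 3626 and 4852 in post, against 3996, 3520 and 3257 in sec (0.20, adjusted p = 0.777). All 4 starch synthesis transcripts had negative differences (median -0.49, -0.33 to -0.63), with 0 called. Of these 4, 3 had every post library below sec, as did 16.0% of all rows. An alpha-amylase-like transcript with no match, LOC100801684, fell (3, 5 and 2 in post, against 9, 16 and 12 in sec; -1.65, adjusted p = 0.0177), a call lost without post library 3 or sec library 2 or 3 (adjusted p from 0.0635 to 0.137). It lies outside the list and was noticed after its values were seen.

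**Figure D4:**
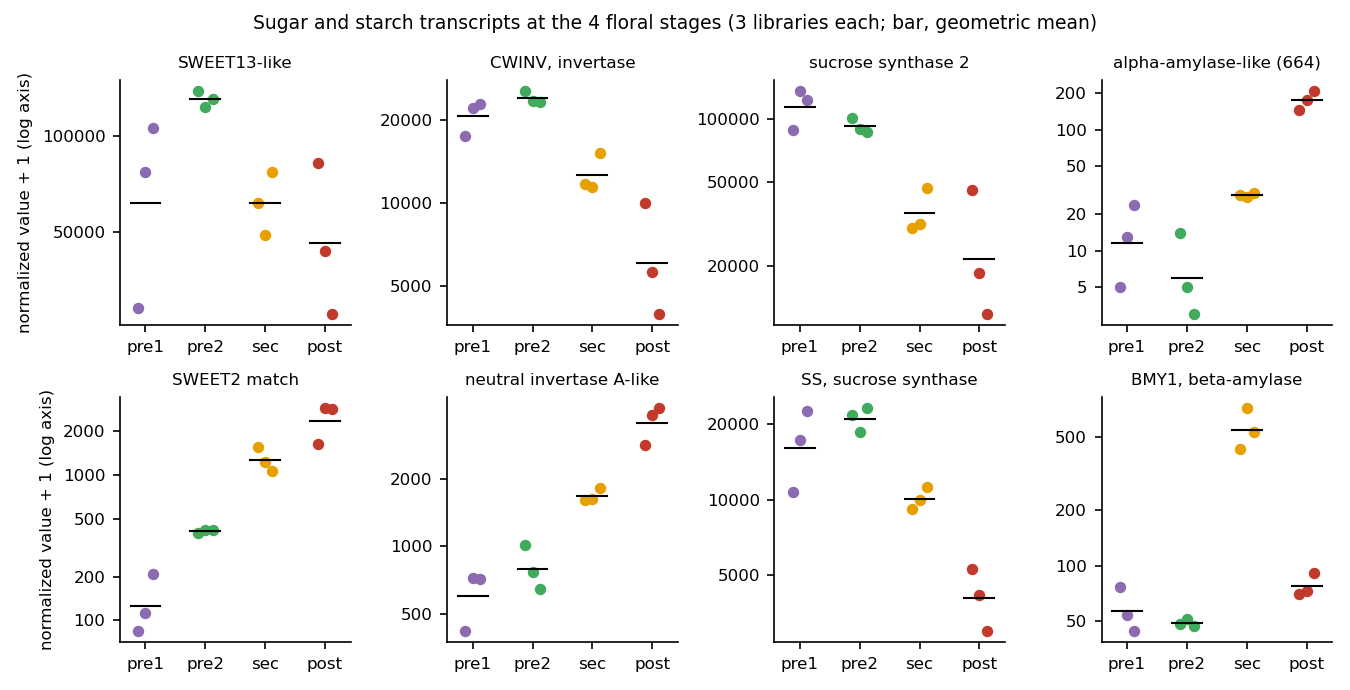
Values (plus 1, log axis) of 8 sugar and starch transcripts in the 3 libraries of each floral stage, from pre1 to post, with the geometric mean as a bar. CWINV and SS lie lower at post than at sec, the neutral invertase and alpha-amylase lie higher, BMY1 was high in sec alone, and SWEET13-like overlapped between sec and post.

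Nectary regulators were largely at their secretory values after secretion. Of the transcripts paired with MYB21 or MYB24, myb-related protein 305 (LOC100816972) had 5787, 4140 and 3084 in post, against 4745, 5362 and 4698 in sec (-0.23, adjusted p = 0.883). MYB98 had 1023, 779 and 849 in post, against 807, 688 and 778 in sec (0.22, adjusted p = 0.835), and MYB182 had 630, 487 and 536 in post, against 507, 459 and 539 in sec (0.13, adjusted p = 0.896). The sides overlapped for all of these. The auxin response factor 8-like LOC100814479 had 1780, 1332 and 998 in post, against 1700, 2256 and 1828 in sec (-0.52, adjusted p = 0.102) and was called without post library 1 (adjusted p = 0.0111). The 1 regulator of 6 that was called, LOC100816086 (NPR5-like, matched to BLADE-ON-PETIOLE2, which takes part in nectary formation in Arabidopsis), fell to 104, 108 and 121 in post, against 283, 334 and 303 in sec, a log2 difference of -1.46 ± 0.19 SE, adjusted p = 0.00014. It kept its call without each library, and the pre2 mean was 346 ± 83.2 (SD, n = 3). The list's median was -0.17, and 3.1% of all rows were called lower. Against pre2, a comparison that shares the post libraries, CRABS CLAW differed by -1.97 (adjusted p = 5.78e-07), MYB98 by -1.82 (adjusted p = 0.000837) and MYB182 by -1.97 (adjusted p = 0.000142).

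Floral organ identity genes gave 1 call in 12, a fall (median -0.28), against 3.1% of all rows called lower. LOC100784496, a DEFICIENS-like MADS factor of petal and stamen identity, had 1105, 830 and 759 in post libraries 1, 2 and 3, against 2452, 2821 and 2557 in sec libraries 1, 2 and 3, a log2 difference of -1.55 ± 0.41 SE, adjusted p = 0.0304. Every post value was under 1106 and every sec value over 2451, but the call was lost without post library 2 or 3 or sec library 1, 2 or 3 (adjusted p from 0.0835 to 0.155). Another DEFICIENS-type transcript, NMH7, had 1096, 927 and 781 in post, against 946, 1046 and 1342 in sec (-0.25, adjusted p = 0.849). Transcripts of other tissues that a hand-dissected nectary could carry gave 0 calls: carpel and ovule (4, median -0.70, summed values of 2180 to 3819 in post and 4059 to 4659 in sec, 3 of 4 with every post library below sec), pollen and anther (3, sums of 4732 to 6580 in post and 4927 to 5532 in sec), phloem (2, sums of 961 to 1109 in post and 1041 to 1374 in sec), xylem (1, 1423 to 1749 in post and 1418 to 2002 in sec) and epidermis (2, 705 to 768 in post and 560 to 729 in sec). Over all rows, 16.0% had every post library below sec. The nectary rings the base of the ovary, and the part of carpel tissue in the differences above was not tested.

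JAZ repressors of the jasmonate pathway changed most in the jasmonate list, 3 of them upward and 1 downward. JAZ (TIFY) proteins block jasmonate-responsive transcription until the hormone, bound by the receptor COI1, has them degraded, and their genes are themselves induced by jasmonate in Arabidopsis. LOC100801449, TIFY 10A-like, rose to 1258, 1515 and 3372 in post libraries 1, 2 and 3, against 298, 308 and 321 in sec libraries 1, 2 and 3, a log2 difference of 2.59 ± 0.36 SE, adjusted p = 0.00028. LOC100778559, TIFY 11B-like (JAZ6 match), had 981, 1281 and 2181 in post, against 432, 309 and 315 in sec (2.01 ± 0.38 SE, adjusted p = 0.00404), and LOC100306332 (JAZ1 match) had 1369, 1606 and 2500 in post, against 439, 466 and 448 in sec (1.97 ± 0.32 SE, adjusted p = 0.00118). The sides did not overlap in any of these, and post library 3 was the highest in each. Another member, LOC100306282, matched to JAZ11, went the other way, with 63, 97 and 74 in post, against 461, 447 and 488 in sec (-2.58 ± 0.27 SE, adjusted p = 1.42e-05). The calls of these 4 held without each library in turn. The other 2 JAZ transcripts, LOC100306045 (JAZ11 match) and LOC100787821 (TIFY 6B-like), had all post libraries above sec without being called (differences of 0.53 and 0.56, adjusted p = 0.377 and 0.191).

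The JAZ transcripts differed in their earlier course. TIFY 11B-like had means of 2552 ± 465 in pre1 and 1376 ± 674 in pre2 (SD, n = 3), so that post lay near pre2 (0.14, adjusted p = 0.804) and the low value was that of sec. TIFY 10A-like had means of 524 ± 61.2 in pre1 and 334 ± 89.9 in pre2, below its post values (2.51, adjusted p = 2.21e-05 against pre2). The JAZ11-matched LOC100306282 had 35.7 ± 13.8 in pre1 and 46 ± 13 in pre2, and was high in sec alone of the 4 stages. Genes of jasmonate synthesis and perception were not called: the allene oxide synthase AOS2 had 18, 39 and 52 in post, against 8, 11 and 15 in sec (1.51 ± 0.45 SE, adjusted p = 0.0513), LOX9, a lipoxygenase, had 204, 194 and 563 in post, against 62, 72 and 247 in sec (1.44, adjusted p = 0.176), and the receptor COI1 had 359, 293 and 267 in post, against 380, 362 and 384 in sec (-0.30, adjusted p = 0.378). The list of 20 thus held 3 increases and 1 decrease, with a median of 0.55. Of all rows, 2.63% were called higher and 3.1% lower.

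Of 10 transcripts matched to rapidly wound-induced Arabidopsis genes, 4 were called higher, against 2.63% of all rows, and none lower, with a median log2 difference of 1.58. This list, like the others, was chosen with earlier results of these data known, so that its count is a description. The count was 0 without post library 3, 1 without sec library 2, 2 without post library 2 or sec library 3, and 3 without sec library 1, while without post library 1 it was 6. The count over all rows moved too, from 137 without post library 3 to 605 without post library 1. The list summed to 2517 to 7146 in post, against 1651 to 2156 in sec, and to 853 to 1192 in pre2. LOC100527075, matched to BAP1, a suppressor of defence and cell death, had 88, 258 and 497 in post libraries 1, 2 and 3, against 31, 15 and 30 in sec libraries 1, 2 and 3, a log2 difference of 3.17 ± 0.69 SE, adjusted p = 0.00894. LOC106797757, matched to the defence regulator WRKY33, had 538, 797 and 1194 in post, against 289, 293 and 299 in sec (1.44 ± 0.30 SE, adjusted p = 0.00654). LOC100816039, ethylene-responsive transcription factor 5-like, had 367, 700 and 1816 in post, against 205, 180 and 216 in sec (1.95 ± 0.49 SE, adjusted p = 0.023). In each, the post libraries differed widely, with library 3 the highest and library 1 the lowest. The BAP1 match lost its call without post library 3 or sec library 2 (adjusted p from 0.0582 to 0.0851), and the WRKY33 match without post library 3 (adjusted p = 0.0612). The 5-like factor lost its call without post library 2 or 3 or sec library 1, 2 or 3 (adjusted p from 0.0639 to 0.193). SCOF-1, a cold-inducible zinc finger protein matched to ZAT10, had 339, 970 and 1560 in post, against 127, 169 and 127 in sec (2.51, adjusted p = 0.0619), and the calmodulin-like transcripts matched to the touch gene TCH3 overlapped between the sides, LOC100810081 with 247, 290 and 352 in post, against 375, 265 and 473 in sec (-0.30, adjusted p = 0.791). All nectaries were cut out by hand, and the part of injury in these values was not tested.

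Heat shock and chaperone transcripts gave 0 calls in 18. Of these, 9 had all post libraries above sec, as did 13.6% of all rows, and the median was 0.41. With only the 6 libraries in the fit 6 were called higher, with a replicate block on these 4, and with a pseudocount of 10 the number was 3. These settings called 679, 404 and 527 of all rows, against the 364 given above. The sum of the 18 was 74031 to 97289 in post, 62855 to 69841 in sec and 42069 to 47026 in pre2. SB100, a heat shock protein, had 4892, 5391 and 4862 in post, against 2234, 2836 and 2159 in sec (1.08, adjusted p = 0.0877), and the small heat shock protein HSP23.9 had 1629, 2282 and 3095 in post, against 1156, 959 and 1104 in sec (1.08, adjusted p = 0.0641). The hypoxia list, of genes that low oxygen induces, held only 3 transcripts and gave 0 calls (median 0.41). Of these, 2 had all post libraries above sec, and 1 was called higher with only the 6 libraries in the fit. The RAP2-2-like ethylene response factor described below, which was called higher, is not in this list. The 0 calls thus hold for those 3 transcripts alone.

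Ethylene, a gas, is made by ACC oxidase and sensed by receptors that repress the pathway until they bind it. Of 12 transcripts of its synthesis and signalling, 1 was called, a fall, against 3.1% of all rows called lower. All 12 had a negative difference (median -0.38, against -0.06 over all rows), and 7 had every post library below sec, as did 16.0% of all rows. With only the 6 libraries in the fit 5 were called lower, with a pseudocount of 10 the number was 3, and with a replicate block on the 6 libraries it was 4. These settings called 679, 527 and 404 of all rows, against the 364 given above. The 1 called fall, LOC100802569_XM_006604663.2, described as ethylene response sensor 1-like and matched to ETR1, had 313, 307 and 276 in post libraries 1, 2 and 3, against 710, 763 and 707 in sec libraries 1, 2 and 3, a log2 difference of -1.28 ± 0.20 SE, adjusted p = 0.000629. It kept its call without each library, and its pre2 mean was 422 ± 17.8 (SD, n = 3). Another transcript of the same soybean gene, matched to ERS1, was not called (-0.44, adjusted p = 0.192). The ACC oxidases LOC100819184 and LOC100807427 did not pass the test. The first had 3295, 4269 and 4816 in post, against 8837, 7669 and 8523 in sec (-1.03, adjusted p = 0.0723), and the second had 70, 48 and 20 in post, against 158, 147 and 164 in sec (-1.91, adjusted p = 0.0959). EIN3, the factor that carries the ethylene signal to genes (LOC100777079), had 12476, 9491 and 8181 in post, against 14375, 16813 and 16295 in sec (-0.67, adjusted p = 0.184). Every post library lay below every sec library in each of these.

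Among ethylene response factor (ERF) genes, 4 of 20 rose and none fell (median 0.16), against 2.63% of all rows called higher. Of the 20, 6 had every post library above sec and 5 had every post library below. Over all rows these shares were 13.6% and 16.0%. LOC100780763, RAP2-2-like, had 43, 96 and 113 in post libraries 1, 2 and 3, against 13, 8 and 2 in sec libraries 1, 2 and 3, a log2 difference of 3.44 ± 0.63 SE, adjusted p = 0.003, from values near the low end of the table. LOC100802242_XM_006606105.2, ERF110, had 368, 666 and 1128 in post, against 176, 198 and 157 in sec (1.88 ± 0.45 SE, adjusted p = 0.0164), a call lost without post library 2 or 3 or sec library 1 or 3 (adjusted p from 0.0588 to 0.154). A second ERF110 transcript of the same soybean gene had a difference of -0.63 (adjusted p = 0.643). The remaining called ones were the factor 5-like transcripts of the wound list, LOC100816039 and LOC100800788. The second differed by 1.72 (adjusted p = 0.0235) and lost its call without post library 2 or 3 or sec library 2 or 3 (adjusted p from 0.0761 to 0.193). NAC and WRKY factors, families with many regulators of stress and senescence, gave 3 increases in 25 (median 0.27) and 2 in 15 (median -0.07). Neither family held a called decrease, and 2.63% of all rows were called higher. LOC100783661, described as WRKY47 and paired with WRKY6 and another factor, a regulator active in senescing Arabidopsis leaves, had 325, 472 and 642 in post, against 93, 113 and 103 in sec (2.16 ± 0.28 SE, adjusted p = 0.00014). NAC8, a match of ATAF1, had 874, 1341 and 2033 in post, against 457, 492 and 677 in sec (1.32 ± 0.26 SE, adjusted p = 0.00434), and NAC018 had 2382, 3110 and 4444 in post, against 1014, 975 and 1125 in sec (1.63 ± 0.36 SE, adjusted p = 0.00963). The WRKY47 and NAC8 calls held without each library, and NAC018 lost its call without post library 3 (adjusted p = 0.0813). LOC100787232, NAC domain protein 17, was called at a smaller difference of 0.64 (adjusted p = 0.025), lost without post library 2 or 3 or sec library 1 or 3 (adjusted p from 0.0865 to 0.169), and LOC100816452, WRKY23, at 0.99 (adjusted p = 0.0406), lost without post library 2 or 3 or sec library 1, 2 or 3 (adjusted p from 0.0752 to 0.201).

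Auxin transcripts gave 1 increase and 3 decreases in 26 (median -0.44), against 5.72% called over all rows, and 12 had every post library below sec, as did 16.0% of all rows. With a pseudocount of 10, 3 were called higher and 8 lower, and with only the 6 libraries in the fit 4 higher and 6 lower. These settings called 527 and 679 of all rows, against the 364 given above. Aux/IAA proteins repress auxin-responsive genes. SLR1, an auxin-induced transcript matched to the repressor IAA14, had 33, 26 and 13 in post libraries 1, 2 and 3, against 164, 208 and 277 in sec libraries 1, 2 and 3, a log2 difference of -3.18 ± 0.44 SE, adjusted p = 0.00028. Its means were 33 ± 24.3 in pre1 and 177 ± 37.5 in pre2 (SD, n = 3). LOC100803986, IAA16-like and matched to the same Arabidopsis gene, had 2471, 2414 and 2073 in post, against 3822, 3905 and 3773 in sec (-0.73 ± 0.20 SE, adjusted p = 0.0411), and LOC100527777, matched to IAA3, rose, with 135, 130 and 125 in post, against 89, 59 and 61 in sec (0.92 ± 0.20 SE, adjusted p = 0.00998). The IAA16-like call was lost without post library 2 or 3 or sec library 1, 2 or 3 (adjusted p from 0.108 to 0.206), and the IAA3 match lost its call without sec library 2 or 3 (adjusted p from 0.0596 to 0.0647). SLR1 kept its call throughout. LOC100784879, a putative auxin efflux carrier, was listed at 0, 0 and 0 in post and 12, 3 and 2 in sec, so that its call (adjusted p = 0.029) rests on a few reads. That call was lost without post library 2 or 3 or sec library 1 or 2 (adjusted p from 0.0572 to 0.148).

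Of 13 transcripts of senescence and chlorophyll loss, 2 rose and none fell (median 0.11), against 2.63% of all rows called higher and 3.1% lower. Those that rose were the WRKY6 and ATAF1 matches described with the WRKY and NAC factors, which are regulators, and enzymes of chlorophyll loss were not called. SGR2, a stay-green protein that starts chlorophyll breakdown, had 1163, 2464 and 2139 in post, against 917, 1003 and 770 in sec (1.04, adjusted p = 0.434). LOC547566, matched to SAG21, had 4273, 3525 and 4221 in post, against 8582, 6550 and 7123 in sec (-0.89, adjusted p = 0.121). Of 13 nucleases and proteases of cell death, 1 rose (median 0.05): LOC100306447, matched to the ribonuclease RNS2, which recycles RNA in the vacuole, had 2040, 3320 and 3466 in post libraries 1, 2 and 3, against 1463, 1222 and 1123 in sec libraries 1, 2 and 3, a log2 difference of 1.18 ± 0.21 SE, adjusted p = 0.00251. It kept its call without each library. EN1, matched to the senescence nuclease BFN1, had 4892, 8463 and 8210 in post, against 3211, 2246 and 2273 in sec (1.46, adjusted p = 0.166), with no overlap between the sides. Autophagy gave 0 calls in 16 (median 0.24, from -0.20 to 0.72). Of the 16, 4 were above sec in every post library, as were 13.6% of all rows. Among the 4 was LOC100527884, matched to ATG8C, with 821, 1077 and 1095 in post, against 578, 604 and 614 in sec (0.72, adjusted p = 0.0695).

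Nitrogen and stress-protectant transcripts held a few large differences. Of 14 in amino acid and nitrogen metabolism, 2 rose and 1 fell (median -0.03), against 2.63% of all rows called higher and 3.1% lower. INR2, an inducible nitrate reductase, the first enzyme of nitrate assimilation, had 37, 267 and 212 in post libraries 1, 2 and 3, against 15, 20 and 18 in sec libraries 1, 2 and 3, a log2 difference of 2.80 ± 0.56 SE, adjusted p = 0.00538. Post library 1 was far below the other post libraries yet above sec. LOC100799876, proline dehydrogenase 2, which breaks down proline, had 677, 923 and 1151 in post, against 301, 376 and 210 in sec (1.64 ± 0.44 SE, adjusted p = 0.0336), lost without post library 2 or 3 or sec library 1, 2 or 3 (adjusted p from 0.0571 to 0.186). LOC100809299, a ferredoxin-dependent glutamate synthase, fell at low values (30, 28 and 29 in post, against 67, 57 and 56 in sec; -1.02, adjusted p = 0.0409), lost without post library 1, 2 or 3 or sec library 1, 2 or 3 (adjusted p from 0.0512 to 0.153). Of 14 abscisic acid transcripts, 1 rose (median -0.04), the dehydrin LOC100816984, a protein of water stress, with 5713, 10292 and 14575 in post, against 4961, 3874 and 4043 in sec (1.15 ± 0.31 SE, adjusted p = 0.0336), lost without post library 2 or 3 or sec library 1, 2 or 3 (adjusted p from 0.0626 to 0.238). The abscisic acid synthesis enzyme NCED3 match, LOC100780284, had 3099, 5088 and 5223 in post, against 2036, 2439 and 1698 in sec (1.10, adjusted p = 0.156), and its sides did not overlap.

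The lists of wall-modifying transcripts gave 2 calls, both falls, where 3.1% of all rows were called lower and 2.63% higher. LOC100793686, a xyloglucan endotransglucosylase/hydrolase matched to XTH5, which cuts and rejoins wall xyloglucan, had 37, 23 and 23 in post libraries 1, 2 and 3, against 304, 352 and 296 in sec libraries 1, 2 and 3, a log2 difference of -3.50 ± 0.74 SE, adjusted p = 0.00715. Its means were 47 ± 40.1 in pre1 and 50.3 ± 30.1 in pre2 (SD, n = 3), so that it too was high in sec alone. It was the single call among 14 expansins and XTH proteins (median 0.38). Of the 14, 7 had all post libraries above sec, as did 13.6% of all rows. With only the 6 libraries in the fit 4 were called higher and 1 lower, and with a pseudocount of 10, 2 higher and 1 lower. These settings called 679 and 527 of all rows, against the 364 given above. Among the 7 was LOC102661404, an XTH23 match, with 420, 825 and 1665 in post, against 190, 155 and 148 in sec (2.34, adjusted p = 0.0849). LOC100817869, a beta-D-xylosidase, fell among 11 cellulose and pectin transcripts (median 0.15), with 258, 254 and 162 in post, against 562, 796 and 610 in sec (-1.56 ± 0.32 SE, adjusted p = 0.00654), lost without post library 3 (adjusted p = 0.0564). Of 20 exocytosis transcripts 1 rose (median 0.13), LOC100808718, syntaxin-121-like, a protein that fuses vesicles with the plasma membrane, with 104, 149 and 190 in post, against 60, 53 and 71 in sec (1.22 ± 0.28 SE, adjusted p = 0.0139), lost without post library 2 or 3 or sec library 1 or 2 (adjusted p from 0.0527 to 0.123). No call was made among 11 aquaporins (median 0.50), 8 proton pumps (-0.14) or 12 defence and nectar protein transcripts (-0.05). Of the aquaporins, 4 had all post libraries above sec, and 3 were called higher with only the 6 libraries in the fit. In that fit 3 defence and nectar protein transcripts were called higher and 1 lower.

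**Figure D5:**
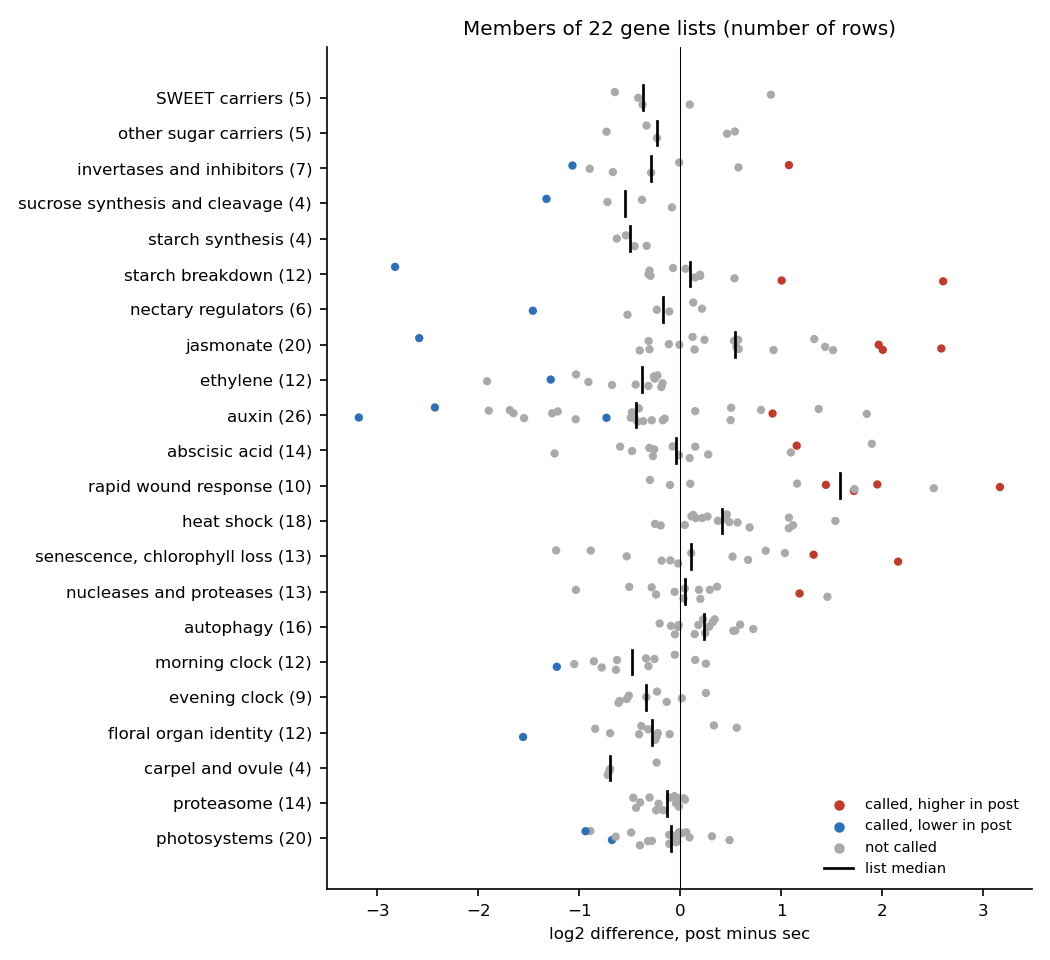
Log2 differences of post minus sec for the rows of 22 gene lists, 1 point per row, with called increases in red, called decreases in blue, rows not called in grey and the list median as a bar. Rapid wound response has the highest median of the lists shown (1.58), jasmonate holds 3 increases and 1 decrease, and all 12 ethylene rows lie below 0.

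Clock transcripts were listed because they can vary with the hour of day, whose part in the differences was not tested. Of 12 morning clock transcripts 1 was called, a fall (median -0.48), and of 9 evening ones none (median -0.34). Of all rows, 3.1% were called lower. Without post library 1, 4 of the 12 morning transcripts were called lower, and 605 of all rows were called. LOC100783482, REVEILLE 8-like, a morning activator, had 231, 148 and 127 in post libraries 1, 2 and 3, against 364, 371 and 412 in sec libraries 1, 2 and 3, a log2 difference of -1.22 ± 0.26 SE, adjusted p = 0.00721, lost without post library 3 (adjusted p = 0.0625). Its means were 536 ± 19.1 in pre1 and 515 ± 55.4 in pre2 (SD, n = 3), both above the values of sec and post. LHY, a core morning gene in Arabidopsis (LOC780540_XM_006604855.2), had 3941, 3226 and 1326 in post, against 3191, 4753 and 5581 in sec (-0.78, adjusted p = 0.269), and LCL1, its relative, had 1347, 851 and 460 in post, against 1189, 1553 and 1688 in sec (-0.85, adjusted p = 0.133). LCL1 and MYB118 (425, 268 and 151 in post, against 461, 563 and 590 in sec; -1.05, adjusted p = 0.0596) were called without post library 1 (adjusted p = 0.017 and 0.0076). Of the evening genes, TOC1 had 680, 651 and 594 in post, against 713, 784 and 620 in sec (-0.13, adjusted p = 0.788) and GIGANTEA (LOC100779044) had 1444, 1149 and 814 in post, against 1444, 1803 and 1557 in sec (-0.53, adjusted p = 0.3), both with overlapping sides. The differences of the remaining clock transcripts lay between -0.64 (LOC100783949, ASG4-like, called without post library 1 at adjusted p = 0.0478) and 0.26 (LOC100809490_XM_006604851.2, a PRR95-like regulator).

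Set against pre2, the leading transcripts of the comparison differed in course. The calcium pump LOC100793918 differed from pre2 by 4.31 (adjusted p = 1.78e-06), FAD3-2b by 3.04 (adjusted p = 1.66e-06) and LOC100815664, the alpha-amylase, by 4.89 (adjusted p = 6.7e-07), in the direction of their rise after sec. CWINV differed from pre2 by -1.99 (adjusted p = 1.06e-05) and LOC100776705, the boron transporter, by -1.64 (adjusted p = 0.000624), in the direction of their fall. BMY1 differed from pre2 by 0.67 (adjusted p = 0.143) and LOC100814842, growth-regulating factor 3-like, by -0.37 (adjusted p = 0.345), both short of the threshold. As these values share the post libraries with the comparison to sec, they are given side by side and not as a second test.

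Smaller families held scattered calls. Of 40 MYB transcripts 1 rose and 3 fell (median -0.23), among the falls MYB83 (25, 39 and 20 in post, against 75, 112 and 127 in sec; -1.88 ± 0.29 SE, adjusted p = 0.000692) and MYB57 (34, 34 and 16 in post, against 88, 79 and 117 in sec; -1.78 ± 0.28 SE, adjusted p = 0.000798), both kept without each library. LOC100775511, MYB884, differed by -1.05 (adjusted p = 0.0483) and lost its call without post library 1, 2 or 3 or sec library 1, 2 or 3 (adjusted p from 0.0743 to 0.186). The increase was LOC100798848, myb-like protein X. Of 14 peroxidases 1 rose and 1 fell (median -0.08): GMIPER1, described as pathogen-induced, had 122, 87 and 132 in post, against 27, 21 and 43 in sec (1.91 ± 0.38 SE, adjusted p = 0.00456), and peroxidase 17-like LOC100793330 had 32, 26 and 23 in post, against 56, 63 and 42 in sec (-0.96, adjusted p = 0.047), a call lost without post library 2 or 3 or sec library 1, 2 or 3 (adjusted p from 0.0561 to 0.223). LOC100819783, a glutathione S-transferase, an enzyme that detoxifies by adding glutathione, was the 1 call of 9 (median 0.73), with 287, 291 and 426 in post, against 146, 137 and 136 in sec (1.23 ± 0.23 SE, adjusted p = 0.00332). LOC100795308, a cytochrome P450 94A1-like transcript with means of 0 in pre1 and 0.333 in pre2, was the 1 call of 13 (median -0.09), with 28, 27 and 46 in post, against 11, 5 and 9 in sec (1.91 ± 0.45 SE, adjusted p = 0.0153), lost without post library 3 or sec library 2 (adjusted p from 0.0927 to 0.118). Of 20 photosystem transcripts 2 fell (median -0.09). LOC100305752 differed by -0.94 (adjusted p = 0.00699) and lost its call without post library 2 (adjusted p = 0.0592), and LOC100306223 differed by -0.68 (adjusted p = 0.049) and lost its call without post library 1, 2 or 3 or sec library 1, 2 or 3 (adjusted p from 0.0697 to 0.193). No call was made among 15 glycolysis transcripts (median -0.19), 14 proteasome subunits (-0.13), 9 histones (0.51), 9 Calvin cycle enzymes (-0.16), 9 of fatty acid oxidation (0.04), 10 of phenylpropanoid synthesis (0.09) or 3 ferritins (-0.11). Of the histones, 5 had all post libraries above sec, as did 13.6% of all rows. With only the 6 libraries in the fit, which called 679 of all rows, 4 histones were called higher. In that fit 2 phenylpropanoid transcripts were called higher and 1 lower. Over the 571 rows of all lists, 28 rose and 20 fell, 8.41% against 5.72% of all rows. The lists were chosen with earlier results of these data known, so that the higher share is a description only.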

How the data were processed

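RNA was sequenced from hand-dissected tissue, with TruSeq RNA v2 libraries read as 50 bp paired ends over 2 lanes, per the labels' protocols. Per the file headers, the deposited values are scores: read counts on soybean transcripts that the authors normalized by upper quartile and left as whole numbers. They were not treated as raw counts. Which mapper was used is not given in the sources used here; DESeq is named, without a version, in the submitters' processing notes. Steps in the low values put the reads behind the 4 clearest post and sec libraries at 3219941 to 4352373. Sec library 1 alone of the 21 has no value of 0, so that the table holds no transcript that this library lacks.

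Differences were computed with limma 3.58.1 in R 4.3.3 on log2(value + 1), as 7 group means over all 21 libraries with 14 residual degrees of freedom, an intensity trend and Benjamini-Hochberg adjustment over 6359 rows. The 2 contrasts were post minus sec and post minus pre2. Of the rows, 5757 are paired with an Arabidopsis locus, by which 49 gene lists were matched, 48 with a member; the guard cell list matched none. Named were the 15 largest called changes each way without overlap and with a group mean of at least 493; all SWEET, invertase, sucrose, nectary regulator and clock transcripts; and up to 3 called each way, by smallest adjusted p, of other lists. Other list members were named as examples after their values were seen. The members and lists were chosen with earlier results of these data known. The fit was tested on simulated data, where 58% of log2 changes of 1 and 95% of changes of 2 were called. Of the calls made there, 8.38% were false. A few transcripts that this rule or a list holds are not reported here.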

Additional observations from a re-analysis of the deposited data

How the results depend on the processing

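With only the 6 libraries in the fit, 679 rows were called, 347 higher and 332 lower in post. Leaving out each post or sec library in turn gave 137 to 605 calls, 54 to 271 higher and 83 to 334 lower; the lowest were without post library 3 and the highest without post library 1. Of the 571 rows in a list, 48 were called, against 84 with a pseudocount of 10, 115 with only the 6 libraries, 91 with only the 6 libraries and a replicate block, and 22 to 75 without one library. The cause was not tested; the fits without a library or with 6 have fewer samples. Rescaling by median ratios moved the median of all rows to -0.004 and the split to 200 higher and 165 lower (54.8% higher, against 45.9%), and of list calls to 68.6% higher, against 58.3%. Pseudocounts of 10 and 0.5 gave 527 and 324 calls, a mean of at least 10 gave 353, equal upper quartiles 381, and no trend 316. Of the 72 called transcripts that the naming rule holds, none changed sign in any of these settings. The count of calls in post minus pre2 stayed within 1.5 times of 2426 in each of its alternatives.

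Replicate numbers carry no stated pairing, and same-numbered post and sec libraries did not deviate together (r = -0.22, 0.16 and -0.11). A replicate block gave 331 calls over all libraries and 404 over the 6. DESeq2 and TMM were not run, since the values are not raw counts. Of 72 called transcripts that the rule names, 37 kept their calls without each library in turn. Depth limits transcripts with a few reads, such as LOC100784879, and 3 libraries a side limit small differences.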

Other observations

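The families in these paragraphs were picked after their values were seen, so that their counts are descriptions. Of all rows, 2.63% were called higher and 3.1% lower. Carotenoid enzymes moved on either side of zeaxanthin. All 3 beta-carotene hydroxylases, which make zeaxanthin, were higher in post: LOC100802778 with 108, 163 and 274 in post, against 36, 34 and 29 in sec (2.33 ± 0.33 SE, adjusted p = 0.00028), LOC100813368 with 84, 102 and 87 in post, against 25, 14 and 22 in sec (2.14 ± 0.50 SE, adjusted p = 0.0142) and LOC100785541 with 62, 62 and 86 in post, against 22, 29 and 26 in sec (1.40 ± 0.35 SE, adjusted p = 0.0235). The 1 zeaxanthin epoxidase, which turns zeaxanthin into violaxanthin on the way to abscisic acid, was lower, LOC100820171 with 142, 158 and 133 in post, against 373, 350 and 382 in sec (-1.35 ± 0.32 SE, adjusted p = 0.0142). None of these overlapped between the stages. The call of LOC100802778 held without each library, that of LOC100813368 was lost without post library 2 or 3 or sec library 2 (adjusted p from 0.0612 to 0.0835), that of LOC100785541 without post library 2 or 3 or sec library 1, 2 or 3 (adjusted p from 0.0572 to 0.155) and that of LOC100820171 without post library 3 or sec library 1 or 3 (adjusted p from 0.0539 to 0.0764). Their pre2 means were 5.67, 3.33 and 3.33 for the hydroxylases and 83.7 for the epoxidase.

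GRF1-interacting factor 1-like, LOC100812917, a coactivator of growth-regulating factors, had 44, 60 and 53 in post, against 271, 338 and 201 in sec (-2.32 ± 0.50 SE, adjusted p = 0.0085), with a pre2 mean of 9.67 ± 2.89 (SD, n = 3). Of 3 transcripts described as gibberellin oxidases 2 fell, LOC100816992 with 39, 26 and 12 in post, against 252, 211 and 203 in sec (-3.20 ± 0.86 SE, adjusted p = 0.0331) and LOC100807298 with 16, 11 and 6 in post, against 72, 110 and 135 in sec (-3.20 ± 0.57 SE, adjusted p = 0.00248). Both are described as gibberellin 20-oxidase-like, a type of enzyme late in gibberellin synthesis, but they have different matches. The GRF1-interacting factor lost its call without sec library 2 (adjusted p = 0.051), and LOC100816992 lost it without post library 2 or 3 or sec library 1, 2 or 3 (adjusted p from 0.0934 to 0.197). Of 3 DELLA proteins, repressors of gibberellin responses, 1 fell and the median was -0.27 (LOC100799695, with 407, 365 and 208 in post, against 645, 755 and 685 in sec; -1.14, adjusted p = 0.0126), a call lost without post library 3 or sec library 2 (adjusted p from 0.0634 to 0.121). Of 80 receptor kinases 8 fell and 1 rose (median -0.28), where 3.1% of all rows were called lower and 2.63% higher. The medians were 0.15 for 6 calcium-transporting ATPases and 0.16 for 6 calcium-dependent protein kinases, each family with 2 increases. SCA1, a calcium-transporting ATPase, had 554, 1047 and 1809 in post, against 336, 341 and 409 in sec (1.49, adjusted p = 0.0117), lost without post library 2 or 3 or sec library 1 or 2 (adjusted p from 0.0501 to 0.111). Calcium-dependent protein kinase 32, LOC100790745, had 588, 1083 and 2095 in post, against 499, 482 and 424 in sec (1.24, adjusted p = 0.0231), lost without post library 2 or 3 or sec library 1, 2 or 3 (adjusted p from 0.0618 to 0.181). Of 63 E3 ubiquitin ligases 6 rose and 3 fell (median 0.03). PHYB, a red-light receptor and the 1 called of 5 phytochromes, had 50, 52 and 43 in post, against 104, 106 and 93 in sec (-1.05, adjusted p = 0.000756). The 2 endoplasmic reticulum oxidoreductins, which support disulphide bond formation in secreted proteins, rose, LOC100798225 with 99, 255 and 246 in post, against 70, 63 and 53 in sec (1.56 ± 0.33 SE, adjusted p = 0.00732) and LOC100783071 with 22, 84 and 86 in post, against 22, 23 and 18 in sec (1.34, adjusted p = 0.0432). In the second, post library 1 equalled a sec library. Their calls were lost without post library 2 or 3 (adjusted p from 0.0606 to 0.0649) for LOC100798225 and without post library 2 or 3 or sec library 1, 2 or 3 (adjusted p from 0.096 to 0.286) for LOC100783071.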
